A study of Homo sapiens with 12 samples.

Results

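The mitochondrial protein import genes are the protein-coding genes that encode the translocases, chaperones and peptidases that move proteins made in the cytosol into mitochondria. They were taken by name as every GENCODE protein-coding gene whose symbol starts with TIMM or TOMM, together with SAMM50, MTX1, MTX2, PMPCA, PMPCB, PAM16, DNLZ and CHCHD4. This gave 35 genes of the 20033 protein-coding genes on chromosomes 1 to 22, X and Y. By the place where the proteins act, 12 of them were classed as outer membrane, 7 as intermembrane space, 11 as inner membrane and 3 as matrix genes. TOMM34 (cytosol) and TIMM23B-AGAP6, a read-through gene that joins TIMM23B and AGAP6, were left outside these classes. The canonical start of TIMM23B-AGAP6 (chr10:49942056) lies beside that of TIMM23B (49942053), so counts over the 35 genes include this start region under both names.

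The study mapped the transcription factor HSF1 and acetylated lysine 27 of histone H3 (H3K27ac, a mark of active promoters and enhancers) in Huh7, an established human hepatocellular carcinoma line. The cells of both libraries used here were labelled as wild type with no treatment and as grown at the usual culture temperature, and each of the 2 libraries is a single sample without a replicate. The assay was CUT&Tag, in which an antibody brings a transposase to its target so that the DNA around it is cut and tagged for sequencing. No comparison below therefore has a replicate check, and all intervals cover counting error only.

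Most mitochondrial proteins are encoded in the nucleus and carry targeting signals. Receptors of the TOM complex in the outer membrane bind these signals and pass the precursors through the TOMM40 channel, after which the SAM complex inserts barrel-shaped outer membrane proteins, the small TIM chaperones and CHCHD4 serve the intermembrane space, and the TIM23 and TIM22 complexes serve the inner membrane and matrix. HSF1 is the factor best known for activating chaperone genes after heat shock, through heat shock elements made of alternating GAA and TTC units, and the CCAAT box is a promoter word bound by the factor NF-Y.

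After duplicates were taken out, 2712212 of 3604911 HSF1 tags and 896393 of 15737890 H3K27ac tags were left, and they gave 7147 and 1299 peaks on these chromosomes. The summit is the highest position of a peak. Its pileup counts the extended tags that cover that position, and its fold enrichment divides this height by the local background, with 1 added to each. Of 10 liver marker genes, among them ALB and AFP, 0 had an H3K27ac summit within 1 kb of a start and 2, APOB and HNF4A, had an HSF1 summit, so the liver identity of the cells could not be read from the acetylation list.

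The sequences under 7 of the HSF1 summits at import genes are given here because they carry the peaks and words that the results turn on. TOMM40, CHCHD4 and TIMMDC1 had the highest fold enrichment of the outer membrane, intermembrane space and inner membrane genes, and TIMM21 was the member with a heat shock element within 100 bp of its summit. TOMM70, TIMM17A and TIMM44 were chosen after their values were seen, TOMM70 for its ETS words and the others for their CCAAT boxes. Each run is the longest stretch within 100 bp of the summit that holds no base of an annotated exon of a protein-coding gene, read from hg38 in the direction of the import gene's transcription. Capitals mark the CCAAT box (CCAAT or ATTGG), the ETS word (CCGGAAG or CTTCCGG), the NRF1 word (GCGCANGCG or CGCNTGCGC) and, at TIMM21, a heat shock element. The stretches lie at chr19:44890657-44890839 (plus strand), chr3:100401090-100401232 (minus), chr3:14124871-14124995 (minus), chr3:119498418-119498546 (plus), chr1:201955372-201955502 (plus), chr19:7943766-7943966 (minus) and chr18:74147844-74147999 (plus). DNLZ, the highest of the matrix genes, is not shown because its summit lies in an annotated exon of an overlapping protein-coding gene, ENSG00000289701.
TOMM40: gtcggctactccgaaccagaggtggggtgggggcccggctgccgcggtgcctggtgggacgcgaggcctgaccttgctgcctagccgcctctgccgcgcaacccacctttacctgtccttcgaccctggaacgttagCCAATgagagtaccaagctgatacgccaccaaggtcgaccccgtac
TOMM70: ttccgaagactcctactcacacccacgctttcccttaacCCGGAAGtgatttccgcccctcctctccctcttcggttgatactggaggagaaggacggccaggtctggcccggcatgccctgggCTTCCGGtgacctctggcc
CHCHD4: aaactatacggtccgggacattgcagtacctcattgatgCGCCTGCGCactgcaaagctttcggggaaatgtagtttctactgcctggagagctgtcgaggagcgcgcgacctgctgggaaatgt
TIMMDC1: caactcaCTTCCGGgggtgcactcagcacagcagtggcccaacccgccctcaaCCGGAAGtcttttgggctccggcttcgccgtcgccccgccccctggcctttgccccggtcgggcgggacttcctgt
TIMM17A: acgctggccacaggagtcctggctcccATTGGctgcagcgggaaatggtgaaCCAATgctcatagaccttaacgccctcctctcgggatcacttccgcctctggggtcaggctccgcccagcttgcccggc
TIMM44: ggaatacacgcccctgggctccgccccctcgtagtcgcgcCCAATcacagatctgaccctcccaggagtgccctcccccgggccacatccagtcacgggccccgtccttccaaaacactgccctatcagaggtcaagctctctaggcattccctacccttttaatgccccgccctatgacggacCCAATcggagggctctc
TIMM21: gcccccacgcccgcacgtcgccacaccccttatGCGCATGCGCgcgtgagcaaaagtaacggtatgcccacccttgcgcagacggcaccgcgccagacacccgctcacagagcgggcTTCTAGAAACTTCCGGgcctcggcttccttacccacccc

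An HSF1 summit lay within 1 kb of an annotated start at 15 of the 35 import genes, which is 42.9% (95% Wilson interval 28.0% to 59.1%). Over all protein-coding genes the share was 25.4%, or 5098 of 20033 genes. The 15 genes were TOMM20, TOMM40, TOMM70, MTX1, CHCHD4, TIMM10, TIMM10B, TIMM13, TIMM17A, TIMM17B, TIMM21, TIMM44, TIMMDC1, DNLZ and PMPCB. Each had 1 summit in its window. Of the 5098 protein-coding genes with a summit, 282 had 2 or more, so 1 summit was the usual case there too.

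The outer membrane class had a summit at 4 of 12 genes (33.3%, interval 13.8% to 60.9%) and the inner membrane class at 5 of 11 (45.5%, interval 21.3% to 72.0%). These counts differed by 1 gene and the intervals overlapped over most of their length, so no difference between the membranes was detectable with this number of genes. The intermembrane space class had a summit at 4 of 7 genes (57.1%, interval 25.0% to 84.2%) and the matrix class at 2 of 3 (66.7%, interval 20.8% to 93.9%). TOMM34 and TIMM23B-AGAP6 had none.

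**Figure D1:**
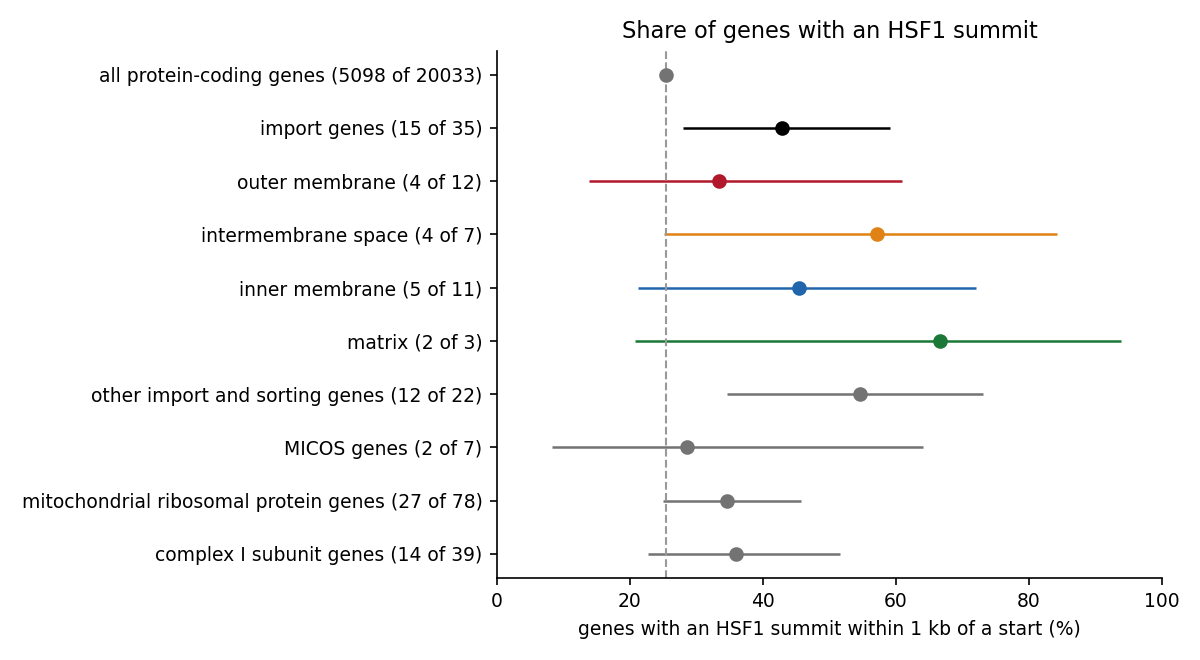
Share of genes with an HSF1 summit within 1 kb of a start, in percent, for all protein-coding genes, the import genes, 4 of their classes and 4 further mitochondrial gene lists. Points are shares, bars are 95% Wilson intervals and the dashed line is the 25.4% of all protein-coding genes. The import genes lie at 42.9%, and the intervals of the outer and inner membrane classes both cross the line.

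The genes were also grouped by machinery, after their values were seen. These groups hold 2 to 7 genes each, and their counts are a description beside the 25.4% of all protein-coding genes. The TOM complex had 3 of 7 genes with a summit: the presequence receptor TOMM20, the carrier receptor TOMM70 and the channel TOMM40, while the central receptor TOMM22 and the small subunits TOMM5, TOMM6 and TOMM7 had none. Of the 3 genes of the sorting and assembly machinery, MTX1 had a summit, and SAMM50, its barrel-shaped core, and MTX2 had none. Among the 6 small TIM chaperones, which escort hydrophobic precursors between the membranes, TIMM10, TIMM10B and TIMM13 had a summit and TIMM8A, TIMM8B and TIMM9 had none. CHCHD4, the oxidoreductase that traps cysteine-rich proteins in the intermembrane space, had one as well.

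In the inner membrane, 3 of 5 genes for the TIM23 channel and its receptors had a summit, namely TIMM17A, TIMM17B and TIMM21. TIMM23, which gives the TIM23 complex its name, and the receptor TIMM50 had none. Of the import motor genes, TIMM44, which holds the mitochondrial Hsp70 at the channel, had a summit and PAM16 had none. TIMM22 and TIMM29, subunits of the TIM22 complex in the inner membrane that inserts carrier proteins, had none, while TIMM10B, the small TIM chaperone of that complex, had one as given above. TIMMDC1, which had a summit, carries a TIMM name but is known as an assembly factor of respiratory complex I. In the matrix, PMPCB had a summit and PMPCA, the other subunit of the peptidase that removes presequences, had none. DNLZ, a helper of the mitochondrial Hsp70, had one. The paralogs TOMM20L, TOMM40L and TIMM23B all lacked a summit.

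TIMM23 and TIMM23B are near-identical copies on chromosome 10. Of the words of 82 bases, the tag length, within 1 kb of the TIMM23 start, 22.7% also occurred within 1 kb of the TIMM23B start, against 0% for TIMM17A with TIMM17B, TOMM20 with TOMM20L, and TOMM40 with TOMM40L. How the authors placed tags that match several sites is not given in the sources used here, so the lack of a summit at TIMM23 and TIMM23B is uncertain.

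The peak at TOMM40 was the highest of the import genes by a wide margin. Its pileup was 62 tags (exact Poisson interval 47.5 to 79.5) and its fold enrichment was 11.5. That pileup was higher than at 99.7% of the protein-coding genes with a summit, and the fold enrichment was higher than at 96.0% of them. The peak covered 829 bp at chr19:44890457-44891285, and the summit, at 44890739, was found 515 bp before the canonical start, in an intron of longer TOMM40 transcripts and 170 bp from the nearest annotated start. Its pileup interval was the 1 interval that lay wholly above those of the other import genes, the next highest of which reached 33.3.

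The remaining outer membrane peaks were lower. TOMM70, which also receives precursors from cytosolic chaperones, had a pileup of 20 tags (12.2 to 30.9) and a fold enrichment of 9.63, with its summit 43 bp upstream of the start. MTX1 had a pileup of 15 tags (8.40 to 24.7) and a fold enrichment of 6.72, with its summit in exon 1, 134 bp downstream of the canonical start. TOMM20 had a pileup of 10 tags (4.80 to 18.4) and a fold enrichment of 6.18, with its summit also in exon 1. Thus TOMM70 ranked above 85.0% of all protein-coding genes with a summit by fold enrichment, and TOMM20 above 23.1%.

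In the intermembrane space class the 4 peaks were alike in height. CHCHD4 had a pileup of 18 tags (10.7 to 28.4) and a fold enrichment of 6.99, with its summit 25 bp upstream of the start, the closest of the import genes. TIMM10, the partner of TIMM9 in the main small TIM chaperone, had the same pileup of 18 tags and a fold enrichment of 5.86. TIMM13, the partner of TIMM8A and TIMM8B, had a pileup of 16 tags (9.15 to 26.0) and, at 5.45, the lowest fold enrichment of the import genes. TIMM10B, which sits at the TIM22 complex, had a pileup of 10 tags (4.80 to 18.4) and a fold enrichment of 6.63. All 4 pileup intervals overlapped, and all 4 fold enrichments were below the median of protein-coding genes with a summit, 7.29.

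In the inner membrane class TIMMDC1 stood first, with a pileup of 17 tags (9.90 to 27.2) and a fold enrichment of 9.09. TIMM17A, a core subunit of the TIM23 complex, had a pileup of 11 tags (5.49 to 19.7) and a fold enrichment of 7.59. Its paralog TIMM17B had a pileup of 16 tags (9.15 to 26.0) and a fold enrichment of 6.39. For this pair the order by pileup was the opposite of that by fold enrichment, and their pileup intervals overlapped. TIMM44 had a pileup of 13 tags (6.92 to 22.2) and a fold enrichment of 7.22. TIMM21, which links the TIM23 complex to the outer membrane machinery, had a pileup of 11 tags (5.49 to 19.7) and a fold enrichment of 6.74.

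Of the matrix genes, DNLZ had a pileup of 22 tags (13.8 to 33.3), the highest after TOMM40, and a fold enrichment of 7.82. Its summit lay 467 bp downstream of the canonical start, in an intron of DNLZ. PMPCB had the lowest pileup of the import genes, 9 tags (4.12 to 17.1), and a fold enrichment of 6.33. The intervals of DNLZ and PMPCB overlapped, so their order is within counting error.

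**Figure D2:**
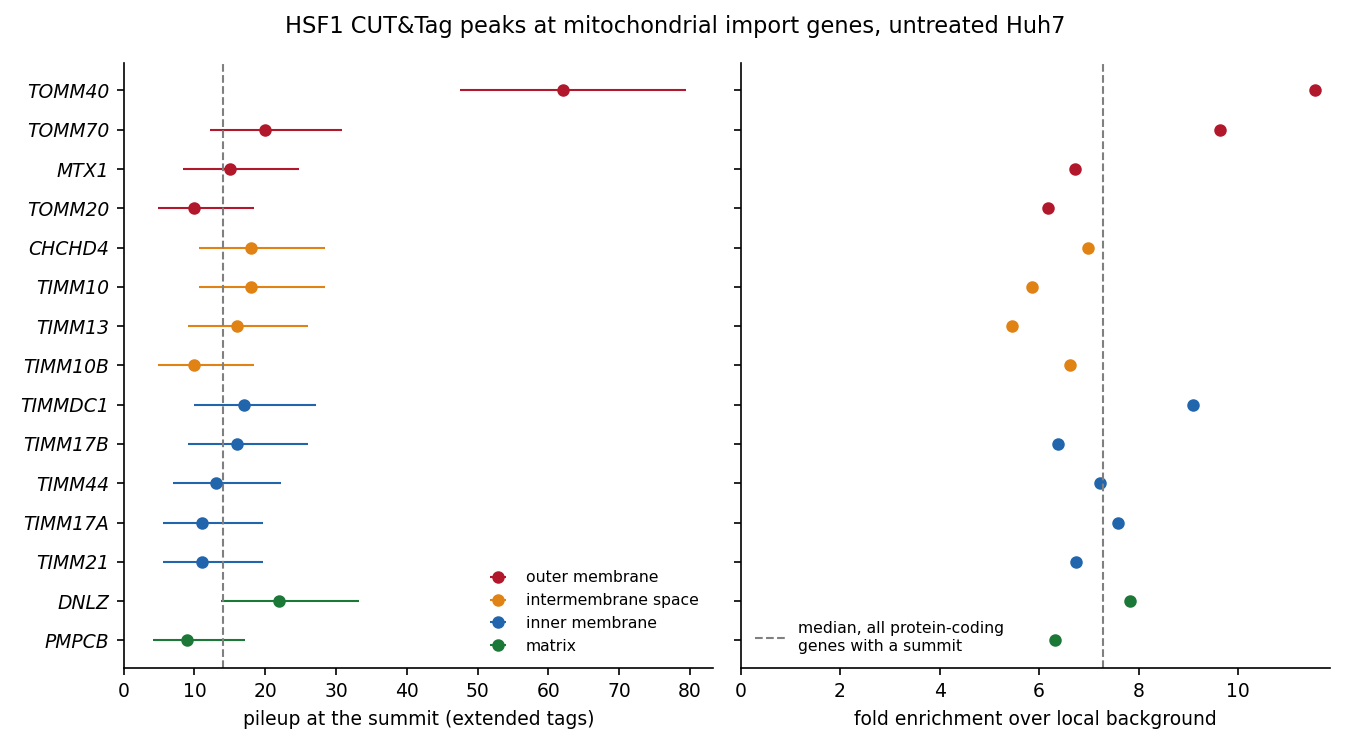
Pileup in extended tags (left) and fold enrichment over the local background (right) of the HSF1 peak at each of the 15 import genes with a summit. Points are single values of 1 library, bars are exact Poisson intervals at 95%, colours give the class and dashed lines are the medians of protein-coding genes with a summit, 14 tags and 7.29. TOMM40, at 62 tags and 11.5, stands to the right of the other genes in both panels.

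Over the 15 genes the fold enrichment ranged from 5.45 to 11.5 with a median of 6.74, beside 7.29 (range 3.44 to 17.3) over the 5098 protein-coding genes with a summit. The pileup had a median of 16 tags, beside 14. By fold enrichment 5 of the 15 genes were above the median of all protein-coding genes with a summit, TOMM40, TOMM70, TIMMDC1, DNLZ and TIMM17A, and by pileup 9 of the 15 were. The medians of the outer and inner membrane genes were 8.18 (n = 4) and 7.22 (n = 5), with ranges of 6.18 to 11.5 and 6.39 to 9.09 that overlapped.

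**Figure D3:**
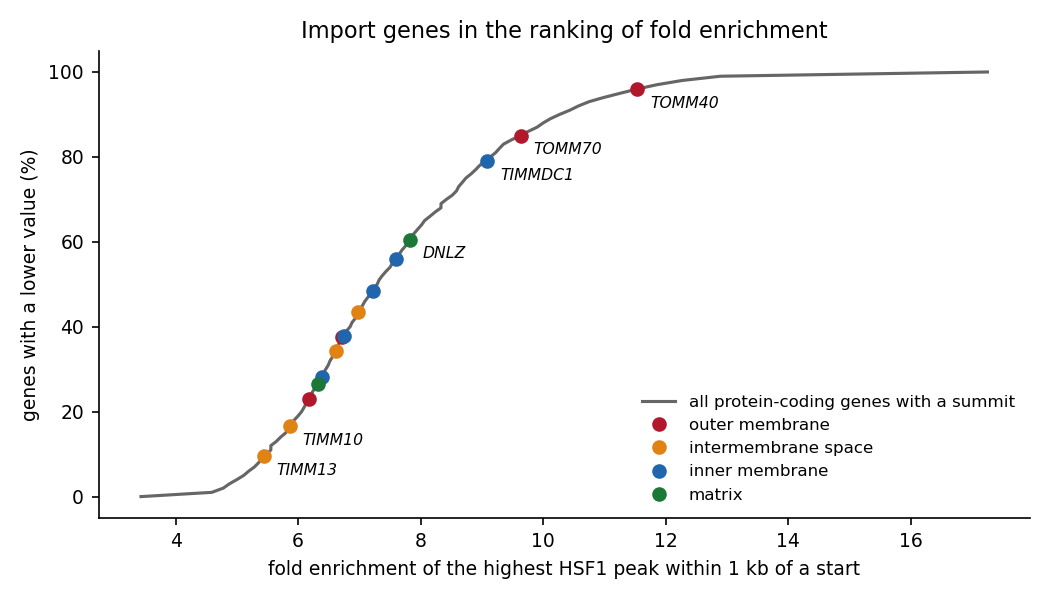
Fold enrichment of the highest HSF1 peak within 1 kb of a start (horizontal) against the percent of protein-coding genes with a summit that had a lower value (vertical). The grey line is all 5098 protein-coding genes with a summit and the points are the 15 import genes, coloured by class. TOMM40, TOMM70 and TIMMDC1 lie at 96.0%, 85.0% and 79.1%, and TIMM13 lies at 9.57%.

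The summits lay close to starts. The median distance from the summit to the nearest annotated start was 63 bp (range 25 to 624) for the import genes and 94 bp for all protein-coding genes with a summit, and 9 of the 15 import gene summits were within 100 bp of a start. Relative to the canonical start, 11 summits lay upstream and 4 downstream, the latter at MTX1, TOMM20, PMPCB and DNLZ. This split and the count within 100 bp are not given here for all protein-coding genes with a summit. Neither is therefore read as particular to the import genes. The farthest from any start was TIMM21, at 624 bp.

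Some of these peaks are shared with another gene. At 6 of the 15 genes another protein-coding gene had a start within 1 kb of the summit, and at 3 of them, TIMM10B, TIMM17B and TIMM21, that start was the nearer one. These shares are not given here for all protein-coding genes with a summit. Those 5098 genes had 4220 summits within 1 kb of their starts, so shared summits also occur outside the import genes. The TIMM10B summit lay 20 bp from a start of ARFIP2 and 138 bp from TIMM10B. The TIMM17B summit lay 54 bp from a start of PQBP1 and 63 bp from TIMM17B. The TIMM21 summit lay 56 bp from a start of FBXO15 and 624 bp from TIMM21. CHCHD4, MTX1 and TOMM70 were nearer to their summits than their neighbours TMEM43, THBS3 and LNP1. Which gene of such a pair the peak belongs to cannot be told apart in these data, and with each summit given only to the nearest protein-coding gene the share was 34.3% (12 of 35), beside 21.2% of all protein-coding genes.

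Divergent neighbours were frequent among the import genes. Of the 35 genes, 12 (34.3%) had a canonical start of a protein-coding gene on the opposite strand within 1 kb upstream, against 9.46% of all protein-coding genes. TIMM23B and TIMM23B-AGAP6, which share a start region, the neighbour PARG and the lack of a summit, are both among the 12. Of all genes with such a divergent neighbour 53.1% had an HSF1 summit, and of the 12 import genes 6 did. Of genes without one 22.6% had a summit, and of the 23 import genes 9 (39.1%) did. GC content was alike, with a median of 65% for the import genes and 65.5% for all genes in the window from 150 bp before to 50 bp after the canonical start. Below 50% GC, 0 of 1 import gene and 4.44% of all genes had a summit, and from 50% to 60% GC 3 of 4 (75%) and 19.2% did. From 60% to 70% GC the values were 9 of 19 import genes (47.4%) and 34.9% of all genes, and at 70% GC or more 3 of 11 (27.3%) and 28.3%. The import genes had a median of 4 annotated starts (range 1 to 18) and all protein-coding genes a median of 5. With 1 start, 0 of 3 import genes and 8.69% of all genes had a summit, and with 2 to 4 starts 8 of 17 (47.1%) and 18.1% did. With 5 to 9 starts the values were 5 of 9 (55.6%) and 29.6%, and with 10 or more 2 of 6 (33.3%) and 38.4%.

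For the 20 import genes without a summit, the nearest summit was at a median of 77.2 kb from their starts. The same distance is not given here for the other protein-coding genes without a summit, so these distances are a description only. TOMM40L lay closest, with a summit 1532 bp away (pileup 15 tags, fold enrichment 7.14), just outside the limit of 1 kb, beside TIMM21 at 624 bp just inside it. TOMM34 followed at 5954 bp, and these were the 2 within 10 kb. Between 10 and 100 kb the distances were 12.5 kb for TIMM8B, 15.2 kb for PAM16, 23.6 kb for TOMM22, 34.9 kb for TIMM50, 47.4 kb for PMPCA, 51 kb for TIMM23, 57.7 kb for TIMM29, 59.4 kb for TIMM8A, 95.1 kb for TIMM23B-AGAP6 and 97.5 kb for TOMM20L. At 8 of the 20 genes no summit lay within 100 kb. For these the distances were 104 kb for TOMM6, 107 kb for TOMM5, 114 kb for TIMM9, 126 kb for TIMM23B, 191 kb for TOMM7, 245 kb for TIMM22 and 267 kb for MTX2, and SAMM50 was the farthest at 768 kb.

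CCAAT boxes were found at import genes at about the share of all protein-coding genes. On either strand, from 150 bp before to 50 bp after the canonical start, a CCAAT pentamer was present at 9 of 35 import genes (25.7%, interval 14.2% to 42.1%) and at 28.5% of all protein-coding genes. The 9 were TOMM40, TOMM40L, MTX2 and SAMM50 of the outer membrane and TIMM17A, TIMM17B, TIMM22, TIMM44 and TIMM50 of the inner membrane, which is 4 of 12 and 5 of 11 genes. The intermembrane space and matrix classes had 0 of 7 and 0 of 3. Over all protein-coding genes the box was present at 36.7% of those with an HSF1 summit and 25.7% of those without. Among import genes it was present at 4 of 15 (26.7%) with a summit and 5 of 20 (25.0%) without.

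TIMM17A held the most boxes, 4 in this window, of which 3 were within 100 bp of its summit and 2 fall in the stretch printed above. TIMM17B held 3 boxes, at 121, 116 and 74 bp upstream of the canonical start, but 0 within 100 bp of its summit, which lay 438 bp upstream. TIMM44 had 2 boxes within 100 bp of its summit, centred 58 and 86 bp from it. TOMM40 had 2 boxes at its canonical start, 107 and 53 bp upstream, and another under its summit, 57 bp from it. TIMM10 had a box 12 bp from its summit that lay outside the window of the start, and TOMM20 had one 97 bp away. In all, 5 of the 15 import gene summits (33.3%) had a CCAAT box within 100 bp, beside 36.1% of the 4220 HSF1 summits near protein-coding starts.

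A heat shock element was searched as 3 alternating GAA and TTC units with 2 free bases between neighbours, with at most 1 mismatch in the 9 fixed bases. At the starts of the import genes it was found at 0 of 35 (interval 0% to 9.89%), beside 2.71% of all protein-coding genes. Under the summits it was found at 1 of the 15, TIMM21, and without a mismatch. There it lay at chr18:74147961-74147973, 550 to 562 bp upstream of the TIMM21 start and 62 bp from the summit, and its last unit overlaps an ETS word. An element without a mismatch lay within 100 bp of 14 of the 7147 HSF1 summits (0.196%), and one with at most 1 mismatch at 173 (2.42%). The TIMM21 summit is the one that lay nearer to the start of FBXO15. In windows of 1 kb to either side of the canonical start, 12 of 35 import genes (34.3%) and 33.8% of all protein-coding genes held an element with at most 1 mismatch.

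The ETS word, the core that factors such as GABPA bind, was the most frequent of the words at import genes. It was present at 17 of 35 (48.6%, interval 33.0% to 64.4%) and at 12.1% of all protein-coding genes. It stood at 8 of 15 import genes with an HSF1 summit (53.3%) and at 9 of 20 without (45.0%), and the intervals of these shares overlapped. TOMM70 and TIMMDC1 had 2 ETS words each, all within 100 bp of their summits. TIMM10 had 2 in the window of the start but more than 100 bp from its summit, and TOMM20, TIMM10B, TIMM13, PMPCB and DNLZ had 1 each in the window of the start. The genes with the word and no summit were TIMM8B, TIMM23, TIMM23B, TIMM23B-AGAP6, TIMM29, TOMM6, TOMM22, MTX2 and TOMM34. TIMM23B and TIMM23B-AGAP6 have the same ETS words, counted for each gene, and the intervals treat them as separate genes. In the window of the start, MTX2 was the 1 import gene with both an ETS word and a CCAAT box. Within 100 bp of the summit TOMM40 and TOMM20 had both, and TIMM10 had its ETS words at the start and its CCAAT box near the summit. In all, 7 of the 15 import gene summits had an ETS word within 100 bp, beside 14.0% of the 4220 HSF1 summits near protein-coding starts. The 7 were those of TOMM20, TOMM40, TOMM70, TIMM10B, TIMM13, TIMM21 and TIMMDC1.

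The NRF1 word, bound by a factor known for nuclear genes of mitochondrial proteins, was present at 10 of 35 import genes (28.6%, interval 16.3% to 45.1%) and at 9.34% of all protein-coding genes. It occurred at 3 of 15 genes with a summit, TOMM20, CHCHD4 and TIMM13, and at 7 of 20 without, among them TOMM7, TIMM8B, TIMM9 and PAM16. The intervals of these shares, 7.05% to 45.2% and 18.1% to 56.7%, overlapped, so no difference was detectable. Over all protein-coding genes the word was present at 14.6% of those with a summit and 7.55% of those without. The E-box CACGTG was present at 3 of 35, TIMM10, DNLZ and TIMM8A (8.57%), and at 6.66% of all protein-coding genes. At least 1 of the CCAAT box, ETS word, NRF1 word and E-box stood at 30 of 35 import genes (85.7%) and at 47.5% of all protein-coding genes. These are matches of letters, and whether a factor binds there was not tested.

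**Figure D4:**
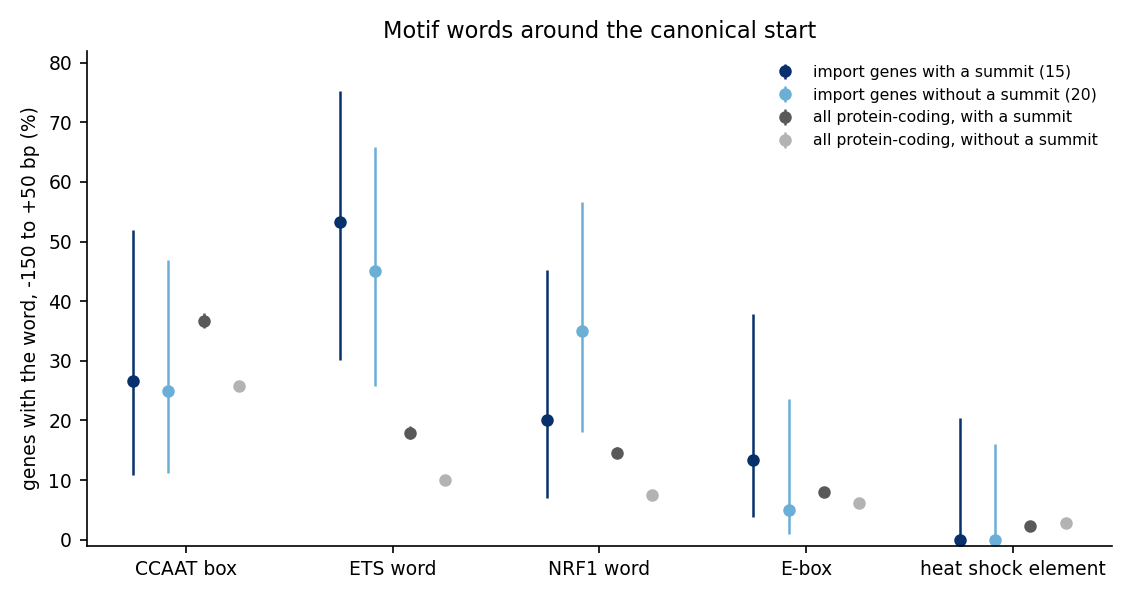
Share of genes with each word from 150 bp before to 50 bp after the canonical start, in percent, for import genes with and without an HSF1 summit and for all protein-coding genes with and without one. Points are shares and bars are 95% Wilson intervals. The ETS word stands at 53.3% and 45.0% of the import genes, with and without a summit, and at 17.9% and 10.1% of all protein-coding genes.

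H3K27ac CUT&Tag summits were rare at import genes, as they were over all protein-coding genes. One lay within 1 kb of a start at 2 of 35 genes (5.71%, interval 1.58% to 18.6%) and at 3.31% of all protein-coding genes. TIMMDC1 had a pileup of 7 tags (2.81 to 14.4) and a fold enrichment of 5.71, and its acetylation peak overlapped its HSF1 peak. SAMM50 had a pileup of 6 tags (2.20 to 13.1) and a fold enrichment of 5.83, with its summit 10 bp from a start, and no HSF1 summit. The other 14 import genes with an HSF1 peak had no overlapping acetylation peak, which at 896393 remaining tags does not show that the mark is absent there. The share of all 7147 HSF1 peaks with such an overlap is not given here, and the acetylation list held 1299 peaks. The lack of overlap is therefore not read as particular to the import genes.

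Other mitochondrial gene lists gave shares in the same range. Of 22 further genes of import, folding and sorting, 12 (54.5%, interval 34.7% to 73.1%) had an HSF1 summit. These included HSPD1 and HSPE1, the chaperonin genes, whose starts lay 3 and 71 bp from the summit of 1 peak with a pileup of 52 tags and a fold enrichment of 12.3. They also included HSPA9, the mitochondrial Hsp70 that drives the import motor, with a pileup of 17 tags and a fold enrichment of 8.74, and its nucleotide exchange factor GRPEL1, with 27 tags and 9.40. Of 7 genes of the MICOS complex, which shapes the cristae, 2 (28.6%) had a summit, APOO and IMMT. Mitochondrial ribosomal protein genes had a summit at 27 of 78 (34.6%, interval 25.0% to 45.7%) and complex I subunit genes at 14 of 39 (35.9%, interval 22.7% to 51.6%). The intervals of all 4 lists overlapped that of the import genes, so no difference from them was detectable.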

How the data were processed

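The analysis used the HSF1 and H3K27ac CUT&Tag peak lists of untreated Huh7 cells, 1 library each. The import genes, their classes and the gene lists were chosen with earlier results of these data known, and the class of TIMM23B-AGAP6 and the grouping by machinery were added after the annotation and the values were seen.

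Per the file headers, the authors called each library on hg38 with MACS 2.1.4 at a p-value cutoff of 1e-05 without a control, shifting tags by -100 bp and extending them to 200 bp. The submitters' processing notes name Bowtie, Picard, deepTools and MACS2. Of the deposited columns, the pileup is a signal in tags, unscaled, and the fold enrichment a ratio to the local background. The deposited -log10 p-value was not used to choose peaks. The headers state that q-values were not calculated although a -log10 q-value column holds values, and it served only as a filter in 1 alternative. Both H3K27ac ChIP-seq lists name hg19 in their headers and were not used here, and the RNA-seq samples were not analysed here.

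Starts came from GENCODE release 44, with 1 canonical start per gene for motif windows. Peaks outside chromosomes 1 to 22, X and Y (195 HSF1 and 93 H3K27ac peaks) were left out. Where several peaks lay within 1 kb, the one with the highest fold enrichment was used. Words were searched on both strands, and the share of all protein-coding genes with the same window is given beside each. Every import gene with a summit is named with its values, and genes without one by the distance of the nearest summit. Shares have 95% Wilson intervals and pileups exact Poisson intervals. They cover counting error only, since tags are not shown to be independent molecules. With 1 library per target no test across samples was possible. The search functions were tested on simulated data with planted summits and words. Alternatives changed the window, the starts, the peak filter, the gene classes and the words. The scripts ran under Python 3.11.15 with scipy 1.17.1, pandas 2.3.3, numpy 2.4.6 and matplotlib 3.10.9.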

Additional observations from a re-analysis of the deposited data

How the results depend on the processing

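The share of import genes with an HSF1 summit stayed within its interval under all 11 alternatives, from 34.3% (nearest protein-coding gene only) to 48.3% (14 of 29 genes, without TIMMDC1, TOMM34, TOMM20L, TOMM40L, TIMM23B and TIMM23B-AGAP6), while that of all protein-coding genes ran from 21.1% to 26.3%. Canonical starts, outermost starts, any base of the peak, -log10 q of at least 5 and fold enrichment of at least 5 each left the same 15 genes. A window of 250 bp lost DNLZ and TIMM21, one of 500 bp lost TIMM21, and one of 2 kb added TOMM40L. Leaving out the read-through gene, chosen after seeing the data, gave 44.1%. The outer membrane share ran from 30.8% to 41.7% and the inner membrane share from 36.4% to 52.4%. The median fold enrichment of the import genes was 0.925 of that of all protein-coding genes with a summit, and by pileup the ratio was 1.14, on the other side of 1. The share with a heat shock element moved from 0% to 34.3% when the window was widened to 1 kb on either side, where all protein-coding genes stood at 33.8%. The other 34 of the 35 alternatives stayed within the interval or, for the ratio of heights, within 1.5 times.

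No paired analysis was possible because each target has 1 library. Of the 15 import gene peaks, 14 rest on 9 to 22 tags, so their order is within counting error apart from TOMM40. A gene without a summit had no peak past the caller's cutoff, which does not show that HSF1 is absent there.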

Other observations

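The ETS word was also frequent at the starts of mitochondrial ribosomal protein genes, where it was present at 30 of 78 (38.5%, interval 28.4% to 49.6%), and at 8 of the 22 further import, folding and sorting genes (36.4%, interval 19.7% to 57.0%). Complex I subunit genes had it at 7 of 39 (17.9%, interval 8.98% to 32.7%), beside 12.1% of all protein-coding genes. The E-box was present at 6 of the 22 further import, folding and sorting genes (27.3%, interval 13.2% to 48.2%), beside 8.57% of the import genes and 6.66% of all protein-coding genes. In the intermembrane space class 4 of 7 genes had the NRF1 word, CHCHD4, TIMM8B, TIMM9 and TIMM13, and the same number had the ETS word, TIMM10, TIMM10B, TIMM13 and TIMM8B, while 0 of 7 had a CCAAT box. These counts were looked at after the values were seen.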
